A study of Mus musculus with 2 samples.

Results

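The keratins that mark the basal, luminal and proximal epithelium of the mouse prostate were followed per cell. They were 10 genes, chosen by name, of 19320 features: Krt5, Krt14, Krt15 and Krt17 of basal cells, Krt8, Krt18 and Krt19 of luminal cells, and Krt4, Krt7 and Krt6a, seen in proximal or stressed epithelium. All 10 were measured. Prostate tissue came from R26 mTmG/hAR:Osr1Cre/+ mice. In these mice Cre made under Osr1, a gene expressed in the embryonic urogenital sinus, switches on both a human androgen receptor transgene (hARtg, the feature ARQ) and membrane green fluorescent protein (EGFP), so EGFP marks the Osr1 lineage. The samples were 1 prostatic intraepithelial neoplasia (PIN) from a 6-month-old and 1 prostatic adenocarcinoma (PCa) from a 12-month-old prostate, each 1 library of 10x 3' single-cell RNA sequencing. All groups carry the transgene, and no wild-type tissue was analysed here.

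Cell barcodes carried 1 of 2 endings, called set 1 (6332 cells, 134850345 UMIs) and set 2 (9410 cells, 187280119 UMIs). The labels do not say which ending belongs to which tissue, so no cell was assigned to PIN or PCa. A difference between the sets may be one between the tissues or one between the libraries, which cannot be told apart. The sets shared 67 barcodes. Epithelial cells were taken as cells with 1 or more Epcam UMI, 5181 in set 1 and 7890 in set 2 after removal of called doublets. Levels are in CPM: UMIs (molecular tags, 1 per captured RNA molecule) of the gene over all UMIs in a group of cells, times 1000000. With 1 library per set there were no replicates. All intervals are exact 95% intervals for counting error only, no p-value was computed, and no difference has a replicate check.

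Keratins form the intermediate filaments of epithelial cells, and each filament pairs an acidic type I keratin with a basic type II keratin. Stratified basal cells pair Krt5 with Krt14 and are anchored through desmosomes and hemidesmosomes, whereas simple luminal cells pair Krt8 with Krt18. Krt15 and Krt17 are further basal type I keratins, Krt19 is a type I keratin of luminal and ductal cells, Krt7 and Krt4 are type II keratins of ducts and mucosa, and Krt6a is induced in stressed and hyperproliferative epithelium. Krt14 and Krt17, and Krt6a and Krt6b, are closely similar in sequence, so reads could be dropped or split between such relatives in the counting.

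The genes lie in the keratin clusters of chromosomes 11 and 15 (RefSeq annotation of GRCm38.p6, the build also called mm10). Krt15 lies first on chromosome 11 (chr11:100131759-100135949), followed by Krt19, Krt14 and Krt17 (chr11:100256215-100261029). Krt7, Krt6a, Krt5 (chr15:101707069-101712905), Krt4, Krt8 (chr15:101996711-102004342) and Krt18 (chr15:102028216-102032026) lie on chromosome 15, and Krt8 and Krt18, a type II and a type I gene, are neighbours with 23873 bases between them. RefSeq promoter entries matched 5 of the 10 genes. Stretches of 120 bases just upstream of the annotated start are shown for the basal gene Krt5, for the neighbours Krt8 and Krt18, whose RNA rose and fell together across cells, and for the ductal gene Krt7. Capitals mark the TATA box core TATAA and the GC box GGGCGG, searched on both strands.
Krt5, chr15:101712906-101713025, minus strand: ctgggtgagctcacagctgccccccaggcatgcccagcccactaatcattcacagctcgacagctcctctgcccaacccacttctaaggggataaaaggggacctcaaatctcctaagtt
Krt8, chr15:102004343-102004462, minus strand: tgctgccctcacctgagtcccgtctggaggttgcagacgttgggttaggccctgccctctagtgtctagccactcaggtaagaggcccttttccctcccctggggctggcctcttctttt
Krt18, chr15:102028096-102028215, plus strand: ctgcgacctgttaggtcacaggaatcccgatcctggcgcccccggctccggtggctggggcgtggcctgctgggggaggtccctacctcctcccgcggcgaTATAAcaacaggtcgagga
Krt7, chr15:101412283-101412402, plus strand: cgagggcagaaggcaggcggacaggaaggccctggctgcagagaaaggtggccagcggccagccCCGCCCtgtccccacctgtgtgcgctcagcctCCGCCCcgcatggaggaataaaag
Of these windows only that of Krt18 held TATAA, and only that of Krt7 held the GC box, on the opposite strand. Among 32851 RefSeq promoters, 22.8% held TATAA and 32.7% held GGGCGG within 250 bases upstream of the start. The letters are a description of these windows, and no match says nothing about the factors that act there.

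Clusters were built without any keratin, EGFP or ARQ among the features, so keratin levels did not define them. The epithelial clusters are called here by their class or by a leading gene: a basal-like cluster (1696 cells in set 1, 355 in set 2), a luminal-like cluster with Tgm4 among its leading genes (717 and 290), and an Msmb-high cluster (475 and 197) in which all 11 luminal markers were detected but which stayed unnamed because a proximal marker, not a luminal one, stood among its leading genes. Clu-high (1159 and 130), Sbpl-high (397 and 121) and Msln-high (183 and 84) clusters resembled proximal or urethral luminal epithelium by their markers. Svs5-high cells (147 and 1641) expressed seminal vesicle genes when both sets were summed, and most of these cells were of set 2. Whether those of set 1 alone expressed them was not examined. Defa22-high (2879 cells), Gulo-high (1281 cells) and cycling Ube2c-high (741 cells) clusters came almost wholly from set 2 and stayed unnamed. Leukocyte-like cells (758 and 239), which should make no keratin, were used to show the free RNA of each set: their Krt8 was 380 CPM in set 1, and 777 CPM in set 2. They differed in kind, since 598 of those in set 1 lay in a cluster led by Rgs1 and 205 of those in set 2 in one led by C1qa. An Epcam UMI was seen in 25.3% and 22.9% of the cells of these clusters, and in 61.2% of a smaller one led by Jchain. The part of unremoved doublets in them was not tested. A further cluster that scored highest for leukocyte markers (360 and 36 cells) stayed unnamed and was not used. Endothelium-like cells of set 2 gave 1042 CPM of Krt8.

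Among the basal keratins, Krt5 and Krt14 were the most restricted. Krt5 reached 1426 CPM (interval 1411 to 1442) among the basal-like cells of set 1, against 11.3 to 141 CPM in the other 6 epithelial clusters of that set. In set 2 it stood at 481 CPM in basal-like cells and at 0.28 to 59.9 CPM elsewhere. Basal-like cells of set 1 thus held about 3 times the Krt5 level of those of set 2, while their Krt14 levels, 4146 CPM (4119 to 4172) and 3991 CPM, were close. Krt14 elsewhere reached at most 311 CPM in set 1 and 319 CPM in set 2, both in Msln-high cells. Trp63, the transcription factor that defines basal cells, was thinly captured, with 6.14 and 11.4 CPM in basal-like cells and at most 3.6 CPM in any other epithelial cluster.

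Krt15 and Krt17 reached further. Krt15 stood at 4728 CPM in basal-like cells of set 1, at 3694 CPM in Msln-high cells and at 1778 CPM in Sbpl-high cells, but at 120 CPM in luminal-like cells. The Msln-high and Sbpl-high clusters thus carried much Krt15 while their Krt5 levels were 141 and 51.6 CPM. In set 2 Krt15 stood at 2965 CPM in basal-like cells, 594 CPM in Msln-high cells and 326 CPM in Sbpl-high cells. In the Defa22-high, Gulo-high, Ube2c-high and Svs5-high cells of set 2 it lay between 2.45 and 12.6 CPM. Krt17 stood at 2984 CPM in basal-like and 955 CPM in Clu-high cells of set 1, and at 2064 and 21.6 CPM in those of set 2.

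**Figure D1:**
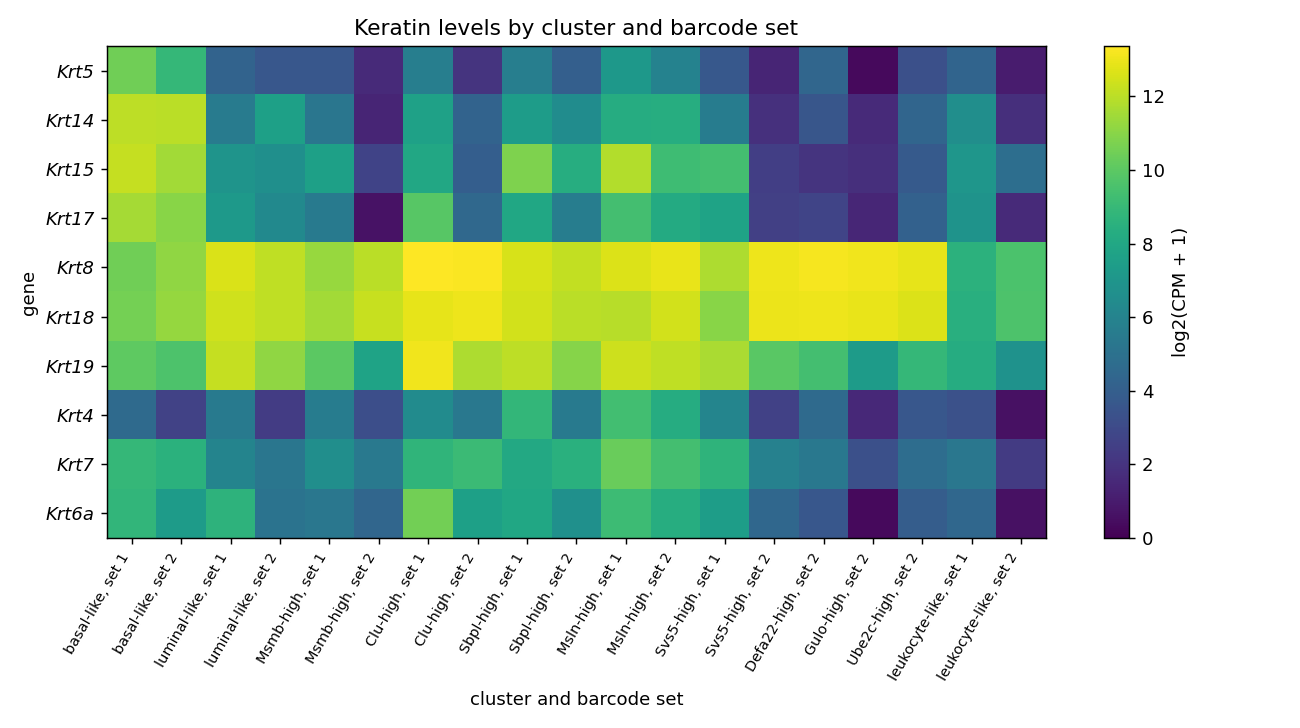
Keratin levels by cluster and barcode set, as log2(CPM + 1), with rows for the 10 genes and columns for clusters with 50 or more cells in a set; leukocyte-like cells at the right show the free RNA. Krt5 and Krt14 are brightest in the basal-like columns, Krt15 extends to Msln-high and Sbpl-high cells of set 1, and Krt19, Krt7 and Krt6a are low in the Gulo-high column.

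The luminal pair was present in every epithelial cluster. Outside the basal-like cluster Krt8 ran from 2557 CPM in Msmb-high to 10570 CPM in Clu-high cells of set 1, and from 4064 to 9836 CPM in these clusters of set 2. Krt18 followed it, with 7539 CPM in Clu-high and 2967 CPM in Msmb-high cells of set 1. Basal-like cells were lowest for Krt8, at 1417 CPM (1402 to 1433) in set 1 and 2285 CPM in set 2, levels above the 380 and 777 CPM of leukocyte-like cells. The number of Krt18 UMIs per Krt8 UMI stayed between 0.603 in Svs5-high cells of set 1 and 1.21 in Msmb-high cells of set 2.

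Krt19 did not keep such a ratio. In set 1 there were from 0.400 up to 0.957 Krt19 UMIs per Krt8 UMI in the 7 epithelial clusters. In set 2 the number was 0.0712 (0.0705 to 0.0720) in Defa22-high, 0.0185 (0.0180 to 0.0191) in Gulo-high and 0.0638 (0.0626 to 0.0650) in Ube2c-high cells. The clusters that dominate set 2 thus carried high Krt8 and Krt18 with little Krt19: Gulo-high cells had 8551 CPM of Krt8, 7712 CPM of Krt18 and 158 CPM of Krt19. The ratio was lower in set 2 in all 7 clusters that both sets held, and the gap varied. It was 0.957 against 0.120 in Svs5-high and 0.400 against 0.0527 in Msmb-high cells, but 0.738 against 0.507 in luminal-like and 0.797 against 0.565 in Msln-high cells. Free RNA shared this difference, since leukocyte-like cells gave 0.828 in set 1 and 0.144 in set 2. Its part in the lower ratio of basal-like cells of set 2 (0.343 against 0.753) was not tested. Whether Svs5-high cells of both sets were the same cell type was not tested either.

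**Figure D2:**
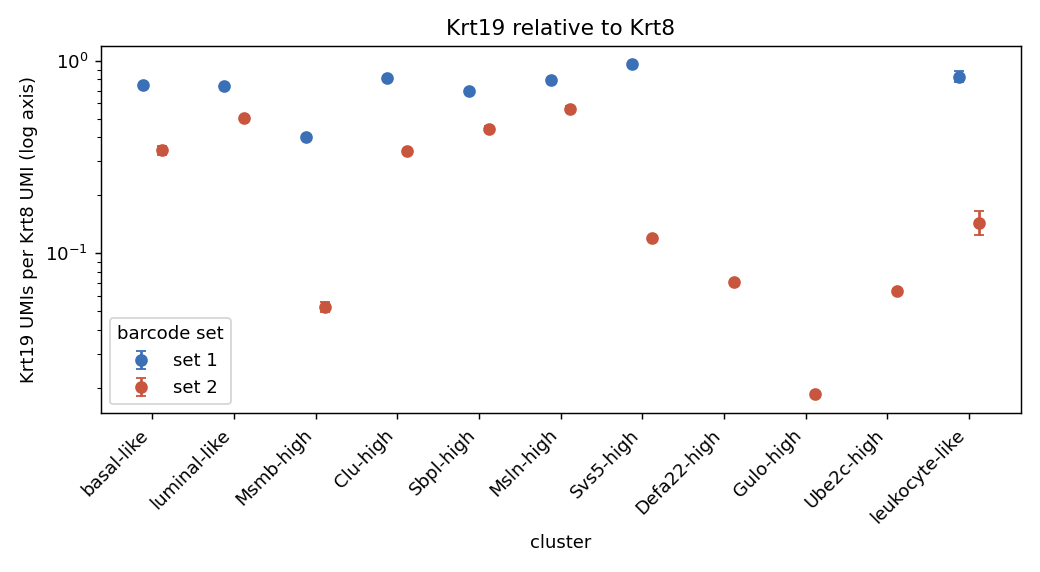
UMIs of Krt19 per UMI of Krt8 on a log axis, by cluster, for set 1 (blue) and set 2 (red); bars are exact 95% intervals for counting error. Set 2 lies below set 1 in each cluster that both hold, with the lowest value, 0.0185, in Gulo-high cells.

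Levels of Krt8 by EGFP ran in opposite directions in the sets, while Krt19 was lower in EGFP-high cells of both. Among Epcam-positive cells of set 1, Krt8 stood at 6541 CPM in cells with 0 EGFP UMIs and 2784 CPM in cells with 5000 CPM or more of EGFP, and Krt19 at 4920 and 2351 CPM. In set 2, Krt8 stood at 2881 and 8451 CPM in cells of these EGFP levels, and Krt19 at 1661 and 707 CPM. Only 50 such cells of set 2 held 0 EGFP UMIs, against 2621 in set 1. The make-up of these cells differed: of the EGFP-high cells, 57.0% in set 1 and 2.13% in set 2 were basal-like. EGFP-high Svs5-high cells of set 1 still held 3017 CPM of Krt19 beside 3052 CPM of Krt8, whereas those of set 2 held 1001 beside 8385 CPM.

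The proximal keratins Krt4 and Krt7 peaked in Msln-high cells. Krt4 stood there at 634 CPM in set 1 and 305 CPM in set 2, and Krt7 at 1280 and 661 CPM. Sbpl-high cells were next for Krt4, with 454 CPM in set 1, while Krt7 there was 269 CPM. Krt4 was near absent from basal-like cells, at 23.9 CPM in set 1 and 5.31 CPM in set 2, but Krt7 was not, at 470 and 365 CPM. Krt6a peaked in Clu-high cells of set 1 with 1444 CPM, and 88.0% of these cells held a Krt6a UMI after thinning to 3000 UMIs per cell. In Clu-high cells of set 2 Krt6a stood at 192 CPM, with a UMI in 25.6% of cells. Leukocyte-like cells gave 4.90% in set 1 and 0 of 232 cells in set 2, an exact upper limit of 1.58%.

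Of 29 other keratins in the table, 3 reached 50 CPM in an epithelial cluster, namely Krt16, Krt23 and Krt78. Krt16, a stress keratin that pairs with Krt6a, was highest in basal-like cells, at 738 CPM in set 1 and 325 CPM in set 2, not in the Krt6a-rich Clu-high cells (289 CPM in set 1). Krt23 was highest in Sbpl-high cells of set 1, at 750 CPM, and Krt78 in Svs5-high cells of set 1, at 52.6 CPM.

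Co-expression per cell was examined after thinning each cell to 3000 UMIs. Across 5078 Epcam-positive cells of set 1 and 7807 of set 2, Spearman's rho of Krt8 and Krt18 was 0.82 and 0.70. It was 0.76 and 0.50 for Krt5 and Krt14, and 0.65 in both sets for Krt14 and Krt17. Within each filament pair the partners thus moved together in both sets, while Krt5 and Krt8, of different pairs, gave -0.47 and -0.21. Krt8 and Krt19 gave 0.79 in set 1 and 0.07 in set 2. Within basal-like cells (1675 and 333), Krt14 and Krt17 kept 0.48 and 0.50 and Krt8 and Krt18 0.48 and 0.32, whereas Krt5 and Krt14 gave 0.40 in set 1 and -0.00 in set 2. Outside the basal-like cluster, Krt6a followed Krt19 in set 1, with a rho of 0.60, and 0.23 in set 2. Cells of 1 set share a library and the same thinned depth, so these values describe the 2 libraries.

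Mixed basal-luminal cells were counted at this matched depth as cells with 2 or more UMIs of Krt5 plus Krt14 and 2 or more of Krt8 plus Krt18. They made up 30.1% (28.9 to 31.4%; 1530 of 5078 cells) of Epcam-positive cells in set 1 and 4.93% (4.46 to 5.44%; 385 of 7807) in set 2. Of the mixed cells, 84.2% in set 1 and 73.2% in set 2 lay in the basal-like cluster. Most basal-like cells met the definition, 76.9% (74.8 to 78.9%) of those in set 1 and 84.7% (80.4 to 88.4%) of those in set 2. The basal pair alone was found in 12.1% (10.6 to 13.8%) of basal-like cells of set 1 and in 0 of 333 in set 2, an upper limit of 1.10%. Shallower cells left out numbered 103 in set 1 and 83 in set 2.

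The luminal pair in such counts includes free RNA. Of leukocyte-like cells, 20.9% (17.7 to 24.4%) in set 1 and 50.4% (43.8 to 57.0%) in set 2 held 2 or more UMIs of Krt8 plus Krt18. The basal pair was rarer there, in 1.69% and 0 of 232 cells, and 1.35% and 0 were mixed. When the luminal pair had to reach a count that under 5% of leukocyte-like cells of the same set reached, 4 UMIs in set 1 and 17 in set 2, a choice made after seeing the data, 63.1% (60.7 to 65.4%) of basal-like cells of set 1 and 24.0% (19.5 to 29.0%) of set 2 stayed mixed. The mixed share of Epcam-positive cells was then 25.5% and 1.84%. The share of basal-like cells in set 1 thus lay far above that of leukocyte-like cells under both limits, and that in set 2 rested on the limit. Median depth of leukocyte-like and basal-like cells was 3970 and 10863 UMIs in set 1, and 7650 and 5511 UMIs in set 2. Whether the 2 kinds of cell held like shares of free RNA was not tested.

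**Figure D3:**
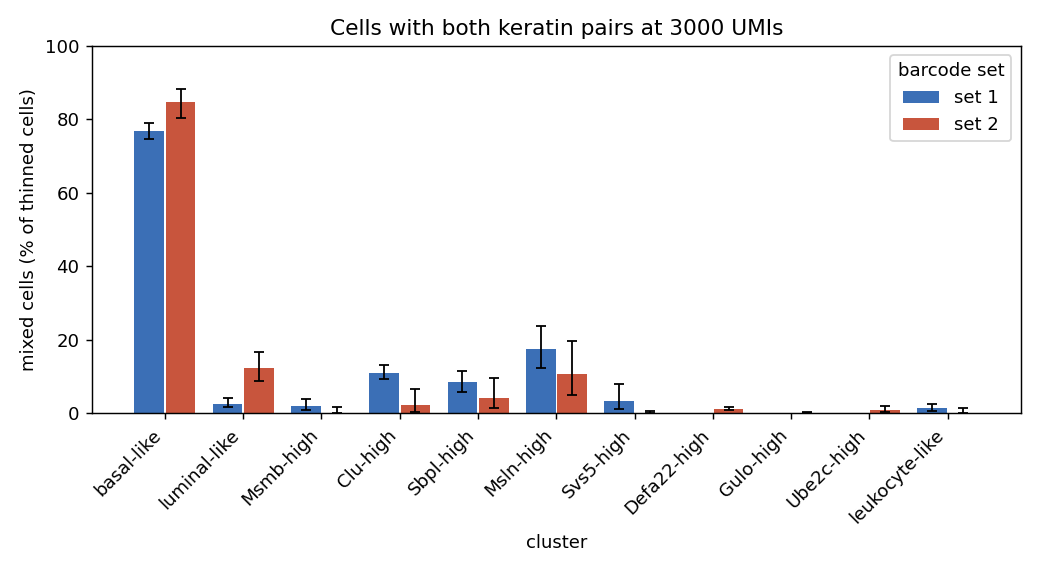
Mixed cells as a percent of cells thinned to 3000 UMIs, by cluster, for set 1 (blue) and set 2 (red); bars start at 0 and error bars are exact 95% intervals. Basal-like cells reach 76.9% and 84.7%, and leukocyte-like cells 1.35% and 0.

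Outside the basal-like cluster, mixed cells of set 1 were 17.5% (12.3 to 23.8%) of Msln-high, 11.1% (9.39 to 13.1%) of Clu-high and 8.42% (5.87 to 11.6%) of Sbpl-high cells, and 2.67% of luminal-like cells. In set 1 the proximal-type clusters thus exceeded the luminal-like one by more than counting error, which set 2 did not show. Mixed Clu-high cells had a median doublet score of 0.147 and 34447 UMIs, against 0.0425 and 27997 UMIs for the cells of that cluster with the luminal pair only, and mixed Sbpl-high cells 0.133 against 0.0485. The part of unremoved doublets in these shares was not tested. In the basal-like cluster of set 1, mixed cells had a median score of 0.0290 and 10901 UMIs, against 0.0264 and 12297 UMIs for cells with the basal pair only. In set 2, 12.4% (8.77 to 16.8%) of luminal-like cells were mixed, with a median score of 0.0800 against 0.0490 for luminal pair only. Mixed cells there were 10.8% (5.08 to 19.6%) of Msln-high, 4.24% (1.39 to 9.61%) of Sbpl-high and 2.33% (0.482 to 6.65%) of Clu-high cells.

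In the Defa22-high cluster of set 2, 37 of 2866 cells (1.29%; 0.911 to 1.78%) were mixed, and these cells differed from the others of the cluster in genes that the definition did not use. Trp63 stood at 26.6 CPM (16.2 to 41.1), with a UMI in 14 of 37 cells, against 3.29 CPM (2.83 to 3.80) in the other 2829 cells. Krt7 stood at 558 CPM (506 to 614) against 33.2, Krt4 at 372 against 18.8 and Krt19 at 1814 against 639 CPM. Krt15, the most abundant keratin of basal-like cells of set 1, was 66.5 CPM (49.3 to 87.6) against 2.22, with a UMI in 6 of the 37 cells. Krt17 was 167 against 3.6 CPM, and the hemidesmosome gene Col17a1 6.65 against 0.199 CPM. Krt15, Krt17 and Col17a1 were thus also higher than in the rest of the cluster. Krt5, which was part of the definition, stood at 1210 CPM with a UMI in 35 of 37 cells, while most of these cells held no Krt15 UMI. EGFP stood at 9254 CPM and ARQ at 1304 CPM, levels like those of the rest of the cluster (9929 and 1590 CPM), and the median doublet score was 0.0407 against 0.0594 for luminal pair only. Among genes picked after their values were seen, Igfbp2 stood at 1247 against 4.68 CPM, the epithelial gene Sfn at 1063 against 43.6, the serpin Serpinb5 at 218 against 4.19, and the hair keratins Krt33a at 310 against 5.39 and Krt35 at 173 against 2.80 CPM.

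The question of how keratins differ with Osr1-lineage marking was addressed by comparing EGFP-high (5000 CPM or more) with EGFP-low (under 1000 CPM) cells in each cluster and set with 50 or more cells on each side. EGFP marks recombined cells, and ARQ moved with it: in basal-like cells of set 1, ARQ was 796 CPM in EGFP-high and 120 CPM in EGFP-low cells. In basal-like cells of set 2 the contrast was smaller, at 827 against 392 CPM. Leukocyte-like cells of set 2 held 158 CPM of ARQ, so EGFP-low basal-like cells of that set were less clearly low in the transgene. A gene entered when it reached 10 CPM on either side, and a change is a 2-fold or greater ratio of CPM.

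In basal-like cells of set 1 (329 EGFP-high, 1216 EGFP-low), Krt14 was 2111 CPM (2069 to 2153) in EGFP-high and 5226 CPM (5189 to 5263) in EGFP-low cells, a log2 ratio of -1.31 (-1.34 to -1.28). Krt17 was 1305 against 3919 CPM, a log2 ratio of -1.59 (-1.62 to -1.55). Krt4 was 6.44 against 29.8 CPM, a log2 ratio of -2.21 (-2.80 to -1.68). These 3 of 10 keratins were 2-fold or more lower and 0 were 2-fold or more higher, while among all 6794 genes compared 3.06% were lower and 2.33% higher by that limit. Krt4 entered through its EGFP-low side only, and its EGFP-high level lay under the 8.91 CPM of leukocyte-like cells of set 1. Krt5 was 1102 against 1628 CPM, Krt8 951 against 1555, Krt18 1083 against 1753 and Krt6a 294 against 485. Krt15 (4481 against 4959 CPM) and Krt19 (927 against 970) were close, and Krt7 was 534 against 421 CPM. The median log2 ratio was -0.70 over the keratins and -0.08 over all genes.

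For Krt5, Krt14 and Krt17 the difference lay between cells below and above 1000 CPM of EGFP. Krt17 in basal-like cells of set 1 was 3970 CPM at 0 EGFP UMIs, 3819 CPM below 1000 CPM, 1023 CPM from 1000 to under 5000 CPM and 1305 CPM at 5000 CPM or more. Krt8, Krt4 and Krt6a were lower mainly at 5000 CPM or more. Between these last 2 EGFP levels Krt8 went from 1470 to 951 CPM, Krt4 from 21.7 to 6.44 and Krt6a from 424 to 294 CPM. After thinning, the median number of Krt5 plus Krt14 UMIs was 18 at 0 EGFP UMIs and 5 at 5000 CPM or more, and that of Krt8 plus Krt18 was 8 and 4. Fewer than 2 UMIs of the luminal pair were found in 8.67% (6.86 to 10.8%) of basal-like cells with 0 EGFP UMIs and in 29.8% (24.8 to 35.0%) of those with 5000 CPM or more. Both filament pairs were thus lower in EGFP-high basal-like cells of set 1, and Krt15 differed by less, with a log2 ratio of -0.15 (-0.17 to -0.12). The 203 basal-like cells with the basal pair only had 4226 CPM of EGFP against 1675 CPM in mixed cells. The 146 with the luminal pair only had 5764 CPM of EGFP, 3760 CPM of Krt15 and 210 CPM of Krt5. Total UMIs were similar, with medians of 11810 and 9991 in EGFP-high and EGFP-low cells.

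**Figure D4:**
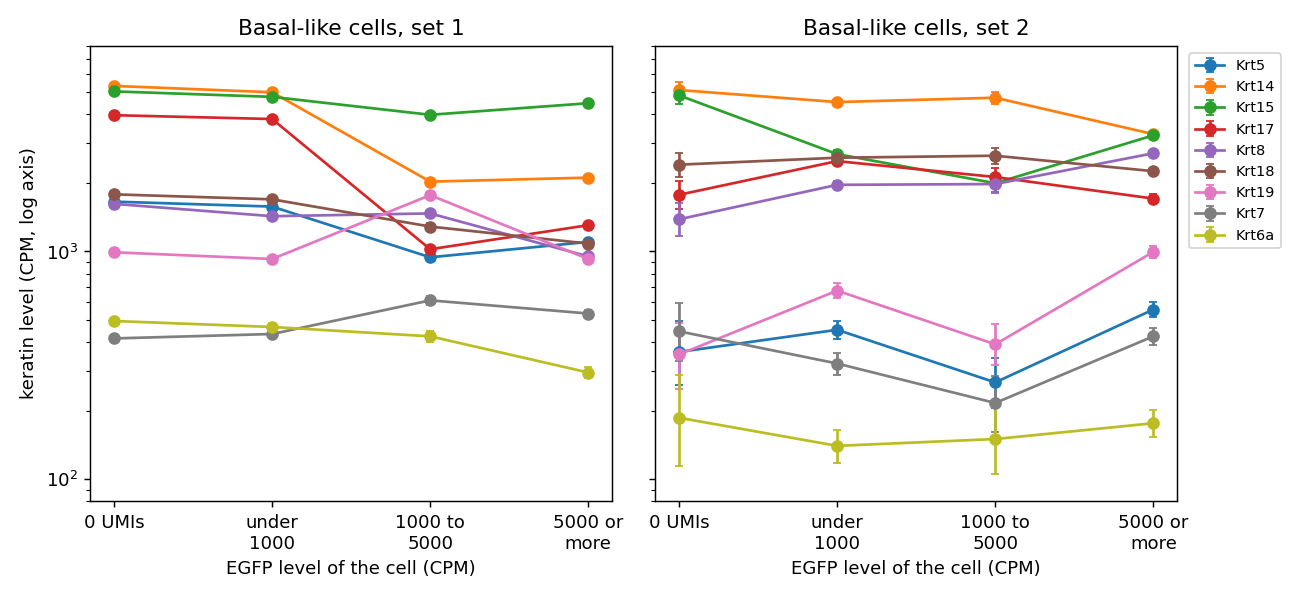
Keratin levels (CPM, log axis) in basal-like cells of set 1 (left) and set 2 (right) by the EGFP level of the cell; error bars are exact 95% Poisson intervals, and Krt4, under 50 CPM, is not drawn. In set 1 Krt14 and Krt17 drop between the second and the third EGFP level, and Krt15 stays near 4000 to 5000 CPM.

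A finer clustering (resolution 1.0) split the basal-like cluster, and 306 of the 329 EGFP-high cells of set 1 fell into a subcluster of 713 cells, beside 268 EGFP-low cells. Within it, in a comparison added after seeing the data, Krt14 was 2049 against 3870 CPM (log2 ratio -0.92, -0.96 to -0.88) and Krt17 1245 against 2577 CPM (-1.05). Krt8 was 958 against 1129 CPM there (-0.24, -0.30 to -0.17), and Krt15 4464 against 5617 CPM (-0.33, -0.36 to -0.30). The lower Krt14 and Krt17 of EGFP-high cells were thus also seen among basal-like cells of the same subcluster, with smaller ratios. Of the basal markers, 3 of 9 were higher in all EGFP-high basal-like cells of set 1, and the list's sum was 2033 against 2595 CPM. Of the 11 luminal markers 5 were higher, with a sum of 1969 against 1322 CPM, and their part in the result was not tested. The sum of the 7 leukocyte markers was 3705 against 2076 CPM, nearly all of it Cd74, an antigen presentation gene that epithelium can express; Ptprc stood at 1.12 CPM and Tyrobp at 0.32 CPM in the basal-like cluster over both sets.

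In basal-like cells of set 2 (147 EGFP-high, 179 EGFP-low) no keratin of the 9 that passed the filter differed by 2-fold, beside 4.53% of 6939 genes higher and 2.42% lower. Krt14 was 3278 against 4588 CPM, a log2 ratio of -0.48 (-0.54 to -0.43), and Krt17 1708 against 2428 CPM, -0.51 (-0.59 to -0.43). Both were lower in EGFP-high cells, as in set 1, by less. Within the EGFP-rich subcluster of set 2 (95 and 67 cells), Krt14 was 2684 against 4311 CPM (-0.68, -0.77 to -0.60), but Krt17 turned, at 1043 against 923 CPM (0.18, 0.01 to 0.35). Over all basal-like cells of set 2, Krt8 was 2701 against 1910 CPM, a log2 ratio of 0.50 (0.42 to 0.58), and Krt19 996 against 643 CPM, 0.63 (0.50 to 0.76). Within the EGFP-rich subcluster Krt8 kept its direction (0.73, 0.61 to 0.85), but Krt19 was close, at 1022 against 974 CPM (0.07, -0.10 to 0.24). In the other subcluster (52 and 112 cells) Krt19 was 948 against 419 CPM (1.18, 0.96 to 1.40). Of the proximal markers, 8 of 9 were higher in all EGFP-high basal-like cells of set 2, with a sum of 4043 against 2951 CPM, and their part was not tested. EGFP-low cells of set 2 held few cells at 0 EGFP UMIs, 20 against 159 with some EGFP, at an EGFP level of 311 CPM, where leukocyte-like cells stood at 1039 CPM. Cells that made no EGFP could therefore not be told apart from lineage cells with little of it.

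In luminal-like cells of set 2 (57 EGFP-high, 172 EGFP-low) the keratins of ducts and stress were higher. Krt7 was 108 against 10.4 CPM (log2 ratio 3.37, 2.86 to 3.91), Krt6a 104 against 14.8 CPM (2.80, 2.36 to 3.27) and Krt4 13 against 1.30 CPM (3.32, 1.86 to 5.10). Krt17 was 39.1 against 80 CPM. Thus 3 of 9 keratins were 2-fold or more higher and 1 was lower, beside 5.13% of 7462 genes higher and 1.49% lower. Krt4 entered through its EGFP-high side only, on 19 against 5 UMIs. Of the 9 proximal markers, 8 were higher in the EGFP-high cells, with a summed level of 5414 against 403 CPM, the luminal list summed to 10177 against 13918 CPM, and the part of proximal-type cells in this cluster was not tested. With called doublets kept, which changed the clusters, 0 keratins differed by 2-fold, and with EGFP limits of 2500 and 500 CPM 2 did.

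Msmb-high cells of set 1 (87 EGFP-high, 298 EGFP-low) showed a like pattern for Krt7 and Krt4. Krt7 was 207 against 38.8 CPM (log2 ratio 2.42, 2.24 to 2.60), Krt4 84.7 against 36.8 CPM (1.20, 0.97 to 1.43) and Krt5 16.9 against 7.79 CPM (1.11, 0.59 to 1.62). These 3 of 10 keratins were 2-fold or more higher and 0 lower, beside 4.18% of 7372 genes higher and 3.28% lower. Krt5 entered through its EGFP-high side only, and its levels lay near the 18.9 CPM of leukocyte-like cells of set 1. Krt8 was 2707 against 2574 CPM, and Krt18 2232 against 3405 CPM (-0.61, -0.65 to -0.57). Again 8 of 9 proximal markers were higher, 7346 against 2793 CPM, and the 11 luminal markers summed to 3898 against 17734 CPM. The leukocyte list, which includes Cd74, summed to 2846 against 7400 CPM (0 of 7 markers higher). The fibroblast list summed to 73.5 against 346 CPM (0 of 6 higher). The part of these markers in the result was not tested. With EGFP limits of 2500 and 500 CPM, 5 keratins passed 2-fold. No other cluster had 50 cells on both sides in a set.

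**Figure D5:**
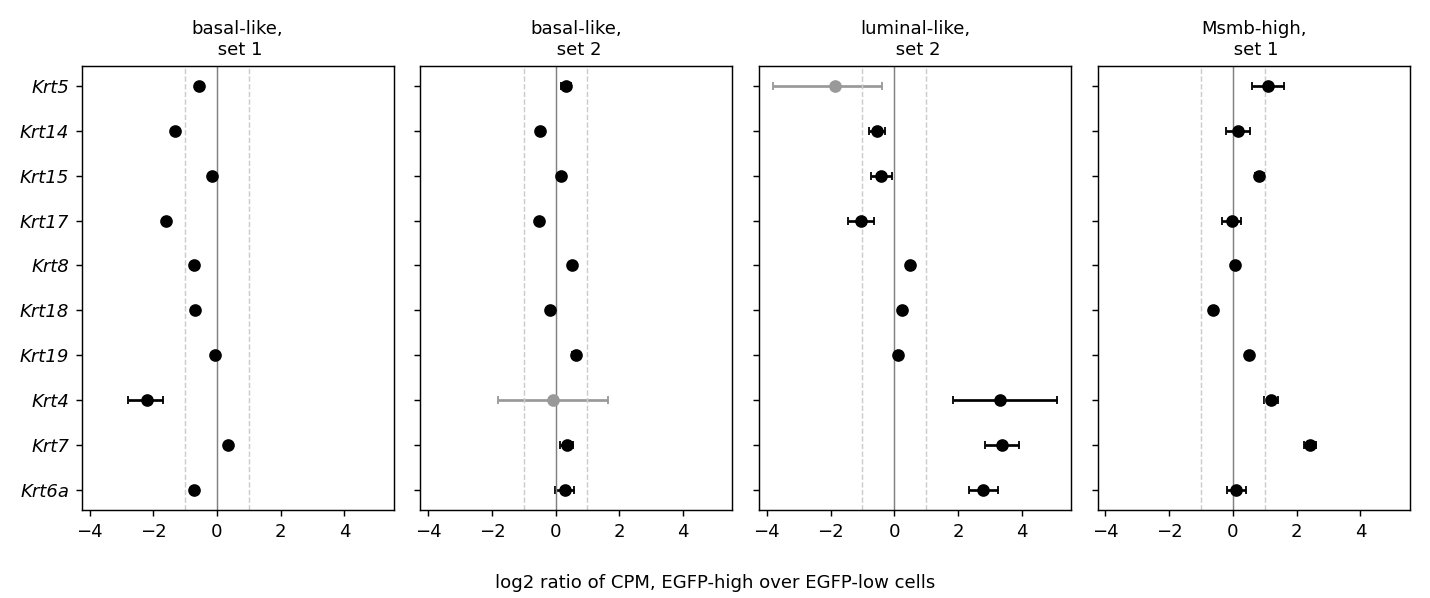
The log2 ratio of CPM in EGFP-high over EGFP-low cells for the 10 keratins in the comparisons with 50 or more cells on each side; bars are exact 95% intervals for counting error, grey points did not reach 10 CPM, and dashed lines mark 2-fold. Krt14 and Krt17 lie left of 0 in basal-like cells of both sets, and Krt7 and Krt4 lie right of 1 in luminal-like cells of set 2 and Msmb-high cells of set 1.

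Filaments attach to desmosomes, and a list of 15 desmosomal and filament-linked genes was compared in the same way. Of the 12 that passed the filter in basal-like cells of set 1, Pkp2, a plakophilin of simple epithelia, was higher at 38.2 against 15.2 CPM, and Dsc3, a basal desmocollin, was lower at 3.65 against 13.5 CPM, so 1 of 12 was higher and 1 lower beside 2.33% and 3.06% of all genes. Dsc3 entered through its EGFP-low side only. The desmosome linker Dsp was 391 against 433 CPM and the plaque protein Jup 266 against 266 CPM. In basal-like cells of set 2 none of 12 differed by 2-fold, beside 4.53% of all genes higher and 2.42% lower. In luminal-like cells of set 2 the linker Ppl alone of 11 did, higher at 15.1 against 7.29 CPM, beside 5.13% of all genes higher and 1.49% lower. Ppl entered through its EGFP-high side only. In Msmb-high cells of set 1 none of 10 did, beside 4.18% higher and 3.28% lower.

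Genes with the pattern most like that of 4 keratins were sought among 4695 genes over 17 points, each a cluster in a set, by Pearson's r of log2(CPM + 10). For Krt5 they were Tpm2 (0.976), Inhba (0.974), Dennd2c (0.970), Col17a1 (0.969) and Mmp14 (0.964), each highest in basal-like cells of set 1. For Krt8, Dazap2 (0.95) and its partner Krt18 (0.936) came first, followed by Bspry at 0.874. For Krt4 they were led by Ly6g6c (0.961) and Srgn (0.936), highest in Msln-high cells of set 1. For Krt6a they were led by Ralb (0.967) and Cyfip1 (0.966), and included Anxa3 (0.95), which reached 1238 CPM in Msln-high cells of set 1. The points share libraries, so the r values are a description.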

How the data were processed

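Prostate cells of hARtg:Osr1-Cre mice were profiled with 10x 3' chemistry. Per the study's methods and labels, the authors counted UMIs with Cell Ranger 3.1.0 on mm10 with the transgene and mGFP sequences added, and dropped likely empty or multiple captures and cells with a high mitochondrial share. The deposited table held values on a natural log scale: a gene's UMIs were divided by the cell's total and multiplied by 10000, 1 was added, and ln was taken. Whole UMIs were recovered for 100% of them (tolerance 0.001) and used throughout.

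Scrublet (scanpy 1.11.5) gave each cell a doublet score within its set. Its automatic limits called 0 cells, so a limit of 0.25, set after the scores were seen, removed 150 cells of set 1 and 183 of set 2. Cells were clustered with Seurat 5.3.0 after anchor integration (2000 variable features, 30 principal components, 20 dimensions, resolution 0.5), with 41 features, all keratins among them, kept out. A cluster counted as epithelial when 80% or more of its cells held an Epcam UMI. It was named for the highest-scoring marker list when 3 or more of its markers were seen in 25% of cells and no other list led its top 10 genes.

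CPM carry exact Poisson, shares Clopper-Pearson and ratios conditional binomial intervals. A sum of 0 was set to 3 UMIs in a ratio. Thinning drew 3000 UMIs per cell at random. The steps were tested on simulated data. The planned set of comparisons was widened to every epithelial cluster with 50 cells on each side, which added Msmb-high cells of set 1; luminal-like cells of set 1 had 22 EGFP-high cells and were not compared. Named genes were the 10 keratins, other keratins of 50 CPM or more, the desmosome list, Epcam, EGFP, ARQ, Trp63 and the 5 genes most like each of 4 keratins; exceptions are marked. The members and lists were chosen with earlier results of these data known.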

Additional observations from a re-analysis of the deposited data

Results flagged for a closer look

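In basal-like cells, 4 keratins had EGFP-high over EGFP-low ratios of opposite sign in the 2 barcode sets, each with an interval that left out 0. The log2 ratio of Krt8 was -0.71 in set 1 and 0.50 in set 2, and that of Krt5 was -0.56 and 0.32. For Krt19 the values were -0.07 and 0.63, and for Krt15 -0.15 and 0.17. With 1 library per set the difference between the sets was not tested. The Krt19 ratio of set 1 became 0.37 under other EGFP limits, and the Krt15 ratio of set 2 became -0.13 when EGFP was split after thinning, so the opposite signs of these 2 genes rest on the split. Within the EGFP-rich subcluster of set 2 the ratio was 0.07 (-0.10 to 0.24) for Krt19 and -0.07 (-0.16 to 0.02) for Krt15. In set 2, leukocyte-like cells held 777 CPM of Krt8 and basal-like cells 2285 CPM, and the part of free RNA in these ratios was not tested.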

How the results depend on the processing

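The mixed share of Epcam-positive cells was 37.6% in set 1 and 6.44% in set 2 with 1 or more UMIs of each pair, 26.1% and 4.25% with 3 or more, 35.5% and 4.07% after thinning to 6000 UMIs, 15.7% and 1.51% with Krt5 alone and Krt8 alone, and 25.5% and 1.84% with the luminal pair above the leukocyte-like level, an alternative chosen after seeing the data. Keeping doublets, leaving out the deepest 5% of cells, asking for 2 Epcam UMIs and another seed left both shares within their intervals. Set 1 exceeded set 2 under each of these, but the leukocyte-like alternative used unlike limits, 4 UMIs in set 1 and 17 in set 2. Basal-like cells were also a larger part of set 1 (1675 of 5078 thinned cells) than of set 2 (333 of 7807). Among basal-like cells alone the main definition gave 76.9% in set 1 and 84.7% in set 2.

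The number of keratins past 2-fold was 2 in luminal-like cells of set 2 with EGFP limits of 2500 and 500 CPM and with EGFP split after thinning, and 0 with called doublets kept; it was 5 in Msmb-high cells of set 1 with the other limits. In basal-like cells of set 2 it became 1 with the split after thinning, without integration and within the EGFP-rich subcluster (an alternative added later). In basal-like cells of set 1 it stayed 3 under the other settings tried, and was 2 within the subcluster. The log2 ratio changed sign for Krt19 of basal-like cells of set 1 (0.37 with other limits, 0.37 with the split after thinning). In basal-like cells of set 2 it did so for Krt15 (-0.13) and Krt18 (0.08) with the split after thinning, for Krt18 with doublets kept (0.23), and for Krt15 (-0.07), Krt17 (0.18), Krt18 (0.04) and Krt7 (-0.06) within the subcluster. In luminal-like cells of set 2 it did so for Krt5 (0.12), Krt14 (0.24), Krt17 (0.02) and Krt19 (-0.13) with other limits, for Krt19 (-0.13) with the split after thinning, and for Krt19 (-0.33) and Krt4 (-0.36) with doublets kept. In Msmb-high cells of set 1 Krt8 changed sign with other limits (-0.03), the split after thinning (-0.04), totals without genes over 1% of UMIs (-0.02) and resolution 1.0 (-0.00). The causes were not tested.

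Of 800 recomputed cluster levels, 717 stayed within 1.5 times the value given, and 47 of the 83 beyond it came from clustering without integration. Msmb-high cells of set 1 could not be compared with doublets kept or without integration, nor luminal-like cells of set 2 without integration, for want of 50 cells on a side. No paired analysis was possible because the tissues gave 1 library apiece and barcodes bear no tissue name. Leaving out a replicate was not possible for the same reason. Depth limits Trp63, Krt4 and other genes under 10 CPM most.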
